A study of Mus musculus with 3 samples.

Results

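The genes for collagen chains, 44 of the 33696 features measured, were examined in nuclei of the mouse abdominal aorta. They were chosen by name, as every gene whose symbol is Col, a number, the letter a and a number. Family assignments gave 11 fibrillar chains, 8 basement membrane chains, 6 beaded filament chains and 19 others. Nuclear RNA was sequenced in 3 droplet libraries, 1 for each group. All mice were ApoE-/- on the C57Bl/6 strain and were kept on a high fat diet during 20 weeks of exposure, so the loss of ApoE and the diet are common to every group, controls included. One group breathed room air and the other groups cigarette smoke, and the smoke-exposed libraries came from aortae without and with an abdominal aortic aneurysm, called the smoke and the aneurysm library below. The sources used here do not say how many animals went into a library. Since each group is 1 library, no difference has a replicate check and none was tested.

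Collagens are extracellular proteins made of chains wound around each other into a helix. Fibrillar types such as I, III and V form the fibrils that bear tension in the artery wall, while type IV forms the sheet-like network under endothelium and around each smooth muscle cell. Type VI makes beaded filaments between cells and fibrils, type VIII makes a short-chain network typical of vessels, and types such as XII and XIV decorate fibril surfaces. Smooth muscle cells, fibroblasts of the outer wall and endothelium are known sources of these chains in the aorta.

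Triplets of values below are in the order room air, smoke and aneurysm. The libraries kept 11022, 14001 and 5707 nuclei, with medians of 4058.5, 6225 and 1443 unique molecular identifiers (UMIs) per nucleus, so counting intervals were widest for the aneurysm library. A level is given as CPM, the UMIs of a chain per 1000000 UMIs of a population in 1 library, and intervals in parentheses are exact 95% Poisson intervals for levels and exact conditional binomial intervals for ratios, which cover counting error only. Clusters were made without the collagen genes and named from markers that hold no collagen, as "X-like". In fibroblast-like nuclei the fibroblast markers summed to 10765, 11013 and 8329 CPM, in smooth muscle-like nuclei the smooth muscle markers to 7483, 7822 and 10769 CPM, and in endothelial-like nuclei the endothelial markers to 7776, 7941 and 8609.9 CPM. Of the 22 clusters, 5 went unnamed: clusters 1, 9, 10, 11 and 14, with 920, 1032 and 605 nuclei in cluster 1 and 92, 184 and 4 in cluster 11. Cluster 9, with 479, 575 and 275 nuclei, was led by Cemip, Tgfb2 and Notch3, and its smooth muscle markers summed to 4578, 5021 and 6455 CPM. Cluster 10, with 653, 757 and 838 nuclei, was led by Grin2a, Ano1 and Grem1, with fibroblast markers at 1427, 1498 and 1399 CPM and smooth muscle markers at 1062, 1538 and 1139.8 CPM. By the marker score used for naming, its best class was smooth muscle (2.75), followed by pericyte (2.28). Cluster 14, with 108, 255 and 495 nuclei, was led by Tll1 and Reln, with endothelial markers at 8407, 9715 and 9815 CPM. Its best class by that score was endothelial (5.42), followed by lymphatic endothelial (4.48).

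T, NK and B cells are not known as collagen sources, so the level in their nuclei was used as a rough guide to free RNA. The T or NK-like and B-like clusters had medians of 1490 and 1343 UMIs, against 6874 in cluster 3 of the macrophage-like nuclei. Whether the level holds for nuclei of other depth, and the part of doublets in it, was not tested. Over 1560 such nuclei of the room air and smoke libraries, all chains together were at 793 CPM (763 to 824). The aneurysm library held 11 T or NK-like nuclei and 3 B-like nuclei, too few to give such a level of its own. A chain is called above the lymphocyte level in a population where its mean CPM over the libraries is at least 2 times that of lymphocytes. For chains with 0 UMIs in lymphocytes, such as Col9a1, Col25a1 and Col28a1, any UMI passes this mark. The mean includes the aneurysm library. Col6a5 in macrophage-like nuclei and Col5a3 in endothelial-like nuclei passed the mark only through that library.

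Collagen chains took 726955 UMIs in the kept nuclei, 3747, 3562 and 4593 CPM over whole libraries. Cluster 9 had the highest collagen level, at 11864, 12043 and 10776 CPM, followed by cluster 10 at 11260.5, 11625 and 7859 CPM. Cluster 10 was lower in the aneurysm library than in the others, while cluster 9 differed less between libraries. Fibroblast-like nuclei were at 7251, 6462 and 5619.9 CPM, endothelial-like nuclei at 6772, 6117 and 6676 CPM and smooth muscle-like nuclei at 5947, 6239.8 and 5709.8 CPM. Macrophage-like nuclei were at 258, 264 and 511 CPM, below the pooled level of lymphocytes. Endothelial-like nuclei held 41.2, 29.6 and 26.4% of a library's collagen UMIs and fibroblast-like nuclei 5.45, 6.11 and 13.6%. These shares follow how many nuclei of each kind were caught, which the nucleus isolation, the UMI minimum and depth can set.

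**Figure D1:**
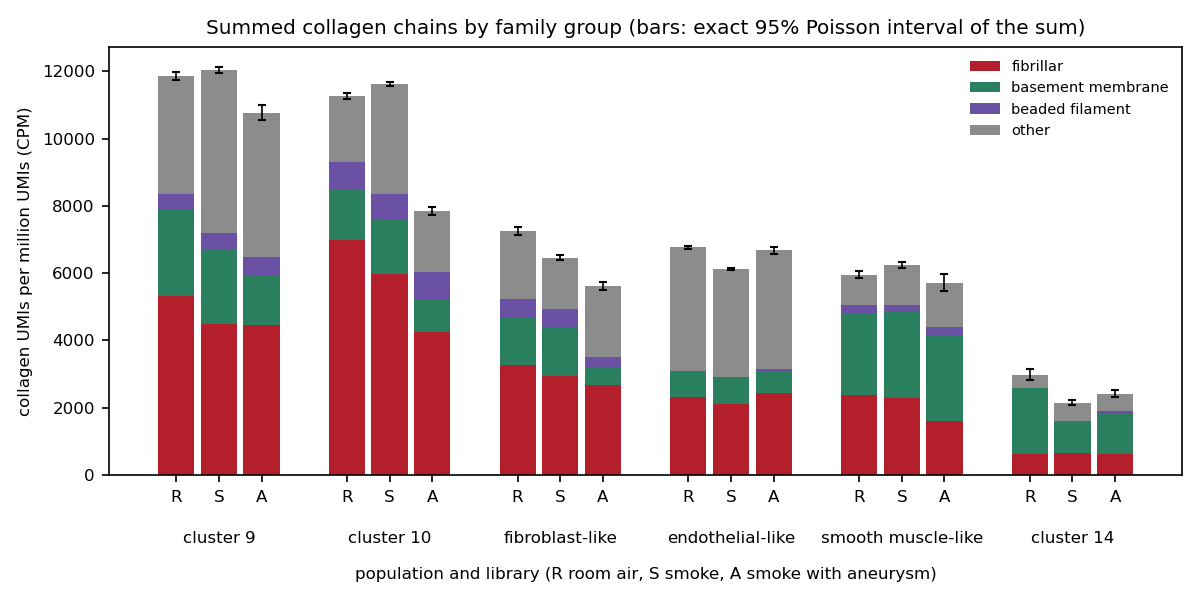
Summed collagen level (CPM, y axis) in populations of the room air, smoke and aneurysm libraries, split by colour into family groups, with exact 95% Poisson intervals of the sum. In cluster 10 the aneurysm library is at 7859 CPM, below room air and smoke, and in endothelial-like nuclei the group of other chains is the largest.

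The family mix differed between populations. Basement membrane chains were 40.4, 41.0 and 45.0% of the collagen UMIs of smooth muscle-like nuclei and 11.5, 12.5 and 9.79% of those of endothelial-like nuclei. In fibroblast-like nuclei they were 19.5, 22.0 and 8.79%, the lowest share being in the aneurysm library. Fibrillar chains were 62.0, 51.4 and 54.0% of the collagen UMIs of cluster 10. Of the 44 chains, 41 had at least 50 UMIs, and for these the population with the highest mean CPM was recorded. It was cluster 9 for 12 chains, fibroblast-like nuclei for 8, cluster 10 for 5, neuron-like nuclei for 5, smooth muscle-like nuclei for 4, endothelial-like nuclei for 3, and adipocyte-like nuclei and cluster 14 for 2 each. For the neuron-like nuclei this rests on 1 library with at least 50 nuclei. The same population came first in 3 libraries for 19 chains, in 2 for 9 and in 1 for 13. Above the lymphocyte level were 29 chains in cluster 10, 27 in fibroblast-like nuclei, 25 in cluster 9, 21 in smooth muscle-like, 12 in endothelial-like and 4 in macrophage-like nuclei. No share of all genes past this mark is given, so the counts do not show whether collagen chains stand out.

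**Figure D2:**
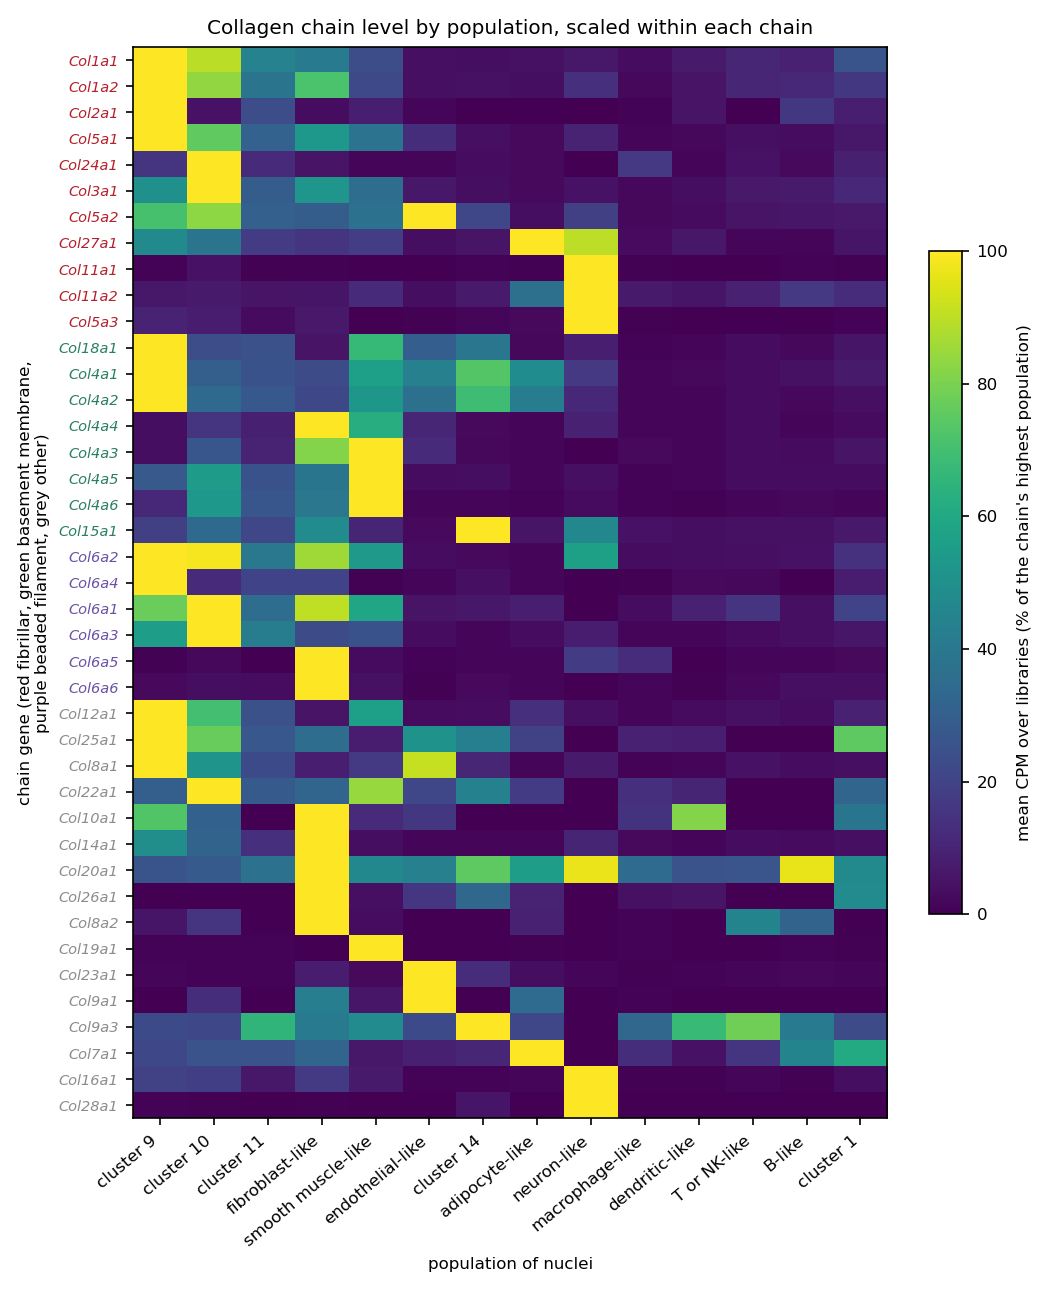
Mean CPM of 41 collagen chains (rows) in each population (columns), scaled to the chain's highest population, over libraries with at least 50 nuclei. Colours can be compared along a row only. Many chains peak in clusters 9 and 10 or in fibroblast-like nuclei, and Col19a1 peaks in smooth muscle-like nuclei.

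Among the fibrillar chains, Col1a1 and Col1a2, the chains of type I collagen, had their highest mean CPM in cluster 9. So did Col5a1, a chain of type V that takes part in starting fibrils. In smoke, Col1a1 was at 641 CPM (623 to 659) in cluster 9 and 653 CPM (637 to 669.7) in cluster 10. Col3a1, the chain of type III found in distensible tissue, was highest in cluster 10, at 2581 CPM (2538 to 2624), 1971 CPM (1944 to 1999.6) and 1434 CPM (1385 to 1485). The counting intervals of the libraries did not overlap there, with room air highest and aneurysm lowest. With libraries clustered one by one, the log2 ratio of aneurysm over room air went from -0.85 to -0.32. In endothelial-like nuclei Col3a1 was at 141, 120.4 and 119 CPM, near its lymphocyte level of 135 CPM. Col5a2, the other common type V chain, was instead highest in endothelial-like nuclei, at 2025, 1821 and 2195 CPM against 106 CPM in lymphocytes. Within that class, cluster 6, led by Pgm5, Ddah1 and Bmp6, had 2290.2, 2277 and 2224 CPM and cluster 17, led by Pkhd1l1, had 1164 and 1082 CPM in the room air and smoke libraries.

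Col8a1, a chain of the type VIII network, was at 3038, 2705 and 2997 CPM in endothelial-like nuclei and at 2548, 3776 and 3247 CPM in cluster 9. Col8a1 and Col5a2 had a Pearson r of 0.975 over the 22 clusters, a description only, as clusters share libraries and depth. Col23a1, a transmembrane collagen, was at 587, 431 and 485 CPM in endothelial-like nuclei, against 9.72 CPM in lymphocytes. It too was higher in cluster 6, at 685, 526 and 493 CPM, than in cluster 17, at 259 and 283 CPM in the room air and smoke libraries.

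Col14a1, which binds fibril surfaces, was highest in fibroblast-like nuclei, at 1586, 1222 and 1702 CPM. The alternative type VI chains Col6a5 and Col6a6 were also highest there, while Col6a3, the large chain of common type VI, was highest in cluster 10, at 728, 699 and 724 CPM. Col19a1, a fibril-associated chain, was at 350.3 CPM (326 to 376), 426 CPM (405 to 447) and 308 CPM (253 to 372) in smooth muscle-like nuclei. All libraries were far above the 1.52 CPM of lymphocytes, and 90.1% of all its UMIs lay in that class. Col15a1, a collagen of the basement membrane zone, was highest in cluster 14, at 243, 162 and 241 CPM. Col27a1, a fibrillar chain known from cartilage, was highest in adipocyte-like nuclei. It was at 658 and 550.0 CPM in cluster 21, led by Ppara and Ucp1, and at 74.8 and 74.0 CPM in cluster 19, led by Car3, in the smoke and aneurysm libraries. Col28a1 was highest in the 68 neuron-like nuclei of the aneurysm library, at 393 CPM from 18 nuclei.

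Type IV chains come as pairs of neighbouring genes read in opposite directions, and the chains of a pair varied together over clusters. Pearson r over 22 clusters was 0.993 for Col4a1 and Col4a2, the chains of nearly every basement membrane. It was 0.967 for Col4a3 and Col4a4 and 0.983 for Col4a5 and Col4a6, which serve specialised membranes. Col1a1 and Col1a2, whose genes are not neighbours, gave 0.979, so a like r was not particular to neighbours. The UMI ratio of Col4a1 to Col4a2 ran from 0.929 to 2.34 over 31 combinations of population and library. That of Col3a1 to Col5a2 ran from 0.0540 to 2.09 over 35. Col4a5 and Col4a6 were highest in smooth muscle-like nuclei, with Col4a5 at 597, 667 and 755 CPM and Col4a6 at 572, 716 and 642 CPM.

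In the RefSeq annotation of GRCm38.p6, Col4a5 and Col4a6 lie head to head on chromosome X with 1274 bases between them. The bases before both genes are shown because the pair was low together in the results below, and those before Col3a1 and Col8a1 because smoke and room air differed in opposite directions for these chains in cluster 10. Each runs 5′ to 3′ on the strand of its gene and ends where the annotated gene begins.
Col4a5: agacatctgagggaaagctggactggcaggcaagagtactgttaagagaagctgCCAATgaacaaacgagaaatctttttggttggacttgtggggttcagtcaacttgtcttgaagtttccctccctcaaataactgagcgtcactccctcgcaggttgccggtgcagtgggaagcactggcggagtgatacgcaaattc
Col4a6: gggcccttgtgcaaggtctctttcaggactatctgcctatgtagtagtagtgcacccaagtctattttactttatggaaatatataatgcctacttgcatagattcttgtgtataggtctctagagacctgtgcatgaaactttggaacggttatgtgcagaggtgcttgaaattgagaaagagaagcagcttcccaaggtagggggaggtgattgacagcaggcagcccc
Col3a1: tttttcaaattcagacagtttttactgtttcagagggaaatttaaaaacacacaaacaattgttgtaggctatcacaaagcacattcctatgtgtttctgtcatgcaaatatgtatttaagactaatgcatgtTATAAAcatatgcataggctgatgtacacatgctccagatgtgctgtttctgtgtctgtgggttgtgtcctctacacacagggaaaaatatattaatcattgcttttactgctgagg
Col8a1: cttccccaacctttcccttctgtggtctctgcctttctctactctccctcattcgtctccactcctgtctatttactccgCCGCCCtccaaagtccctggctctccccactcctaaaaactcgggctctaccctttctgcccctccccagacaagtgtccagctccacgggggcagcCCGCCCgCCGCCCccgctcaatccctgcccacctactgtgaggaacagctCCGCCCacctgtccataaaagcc
Their places are chrX:141475169-141475369 (plus strand), chrX:141474096-141474326 (minus strand), chr1:45311288-45311537 (plus strand) and chr16:57754738-57754987 (minus strand). Capitals mark matches, on either strand, to the motif of the TATA box (TATAAA), the CCAAT box (CCAAT), the GC box (GGGCGG) or the CArG box. Serum response factor binds the last. A match is of letters only, and no function was tested. By its first base, the Col4a5 CCAAT lay 147 bases and the Col3a1 TATAAA 117 bases from the end of the window. These motifs do not overlap one another here. Col4a5 held 1 CCAAT match, as did 28.6% of the 32851 promoters of the table over the same stretch. Col4a6 held none of these motifs. Col3a1 held 1 TATAAA match (12.4% of promoters hold one) and Col8a1 held 4 GGGCGG matches (32.7% of promoters hold one). None of these windows held a CArG box, which 1.47% of promoters hold in 250 bases.

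**Figure D3:**
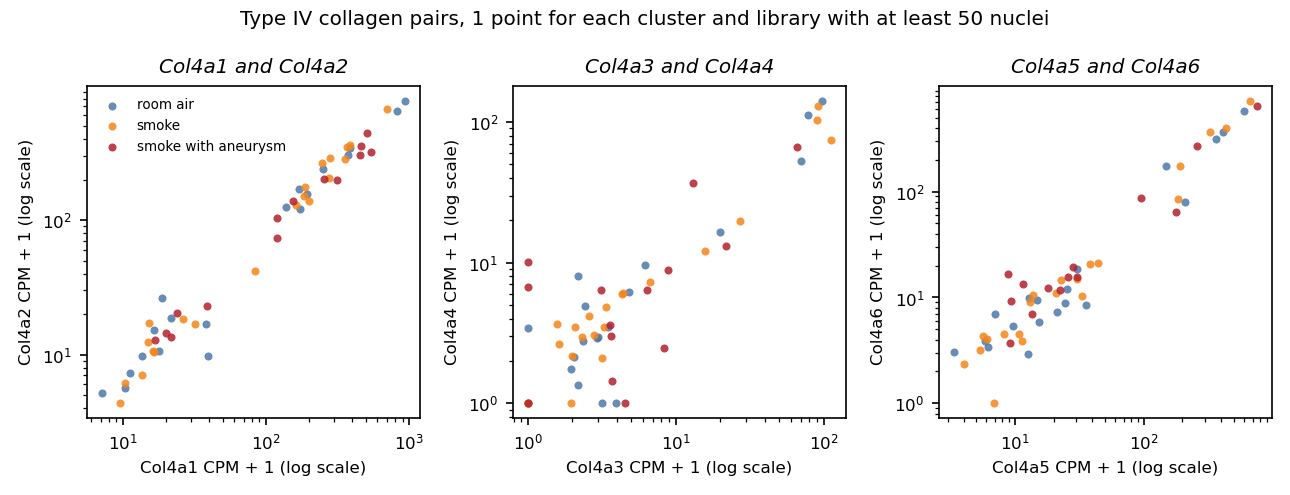
CPM + 1 of both chains of each type IV pair on log axes, 1 point for each population with at least 50 nuclei in a library, coloured by library. Chains of a pair lie along a line, and Col4a3 with Col4a4 has the most points at low levels.

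The first comparison, smoke against room air, asks what goes with smoke exposure without an aneurysm. A chain is counted as higher or lower where its UMIs in both libraries added up to at least 20 and the CPM differed at least 1.5-fold, and it is named, up to 8 in each direction, where the interval of the ratio also leaves out 1. Each of the 173 named ratios was recomputed under 5 to 12 alternatives of filter, clustering, depth or weighting. In all of those run, 98 stayed past 1.5-fold, and 75 did not. Beside the results below, the log2 ratio furthest from the reported side is given in parentheses for chains that an alternative took under this limit, where a value of the opposite sign also counts as under it. For chains that moved by over 1.5-fold but kept it, the log2 ratio that moved most is given. Ratios of chains beyond those named were not recomputed.

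In cluster 10, Col8a1 was at 1271 CPM (1241 to 1302) and 2517 CPM (2486 to 2549), 1.98-fold higher (1.93 to 2.03) in smoke. Col12a1, a fibril-associated chain of tissues under tension, was at 127 and 225 CPM, 1.77-fold higher (1.62 to 1.93). Col24a1, a minor fibrillar chain, was at 178 and 83.1 CPM, 2.15-fold lower (1.95 to 2.36). In cluster 10, of 30 chains measured, 4 were higher and 5 lower, where 12.2% and 5.02% of all genes measured were. Also named there were Col19a1 and Col11a1 (1.98-fold to 3.62-fold higher), and Col5a3, Col7a1 and Col16a1 (1.59-fold to 3.02-fold lower). Of the 59 Col19a1 UMIs in smoke, 35 came from 1 nucleus. Of the 19 Col11a1 UMIs in room air, 16 came from 1 nucleus. The median log2 ratio of the chains was 0.037. With no mitochondrial limit the log2 ratio was 0.53 for Col8a1, and with libraries clustered one by one it was 0.46 for Col12a1, both under the 1.5-fold limit. Alternatives brought Col16a1 (-0.56) and Col19a1 (-1.18) under the limit, while Col11a1 (3.17) and Col7a1 (-2.34) moved by over 1.5-fold but stayed past it.

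Fibroblast-like nuclei had Col8a1 lower in smoke, at 332 CPM (307 to 359) and 191 CPM (178 to 206), 1.73-fold lower (1.56 to 1.93). Col6a6 was at 224 and 126 CPM, 1.78-fold lower (1.56 to 2.03). With nuclei weighted equally, the log2 ratio of Col8a1 was -0.42, under the limit. In this class, of 31 chains measured, 4 were higher and 3 lower, where 16.7% and 5.44% of all genes measured were. Also named were Col23a1 and Col16a1 (1.67-fold to 1.78-fold higher), and Col5a3 (1.61-fold lower). Under at least 1 alternative the limit was missed by Col23a1 (0.23). The median over chains was 0.11 beside 0.099 over all genes, close to each other.

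Col5a3, the third chain of type V, was lower in smoke in 3 populations. It was at 45.8 and 28.5 CPM in fibroblast-like nuclei, at 43.5 and 23.8 CPM in cluster 10 and at 58.2 and 32.1 CPM in cluster 9, where it was 1.81-fold lower (1.51 to 2.18). With a 1000 UMI minimum the log2 ratio in fibroblast-like nuclei was -0.55, under the limit. In cluster 9, of 30 chains measured, 1 was higher and 8 lower, where 12.7% and 5.17% of all genes measured were, with a median of -0.21. The chain that was higher was Col15a1 (1.67-fold higher). Col25a1, a transmembrane chain, had 40 UMIs in 9 nuclei of the room air library, 14 of them in 1 nucleus, and 1 UMI in smoke. The others named as lower were Col19a1, Col2a1, Col28a1, Col24a1 and Col23a1 (1.67-fold to 3.71-fold lower). At least 1 alternative left Col15a1 (0.21), Col19a1 (0.094), Col24a1 (0.75) and Col28a1 (0.72) under the limit, while Col23a1 (-2.05), Col25a1 (-8.23), Col2a1 (-2.28) and Col5a3 (-1.50) moved by over 1.5-fold but stayed past it.

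In smooth muscle-like nuclei, of 26 chains measured, 3 were higher and 3 lower, where 15.3% and 5.71% of all genes measured were. Col4a3 was at 69.2 and 111 CPM, 1.60-fold higher (1.32 to 1.94), and Col8a1 at 367 and 561 CPM, 1.53-fold higher (1.41 to 1.66). Both went under 1.5-fold with nuclei weighted equally, at log2 ratios of 0.41 and 0.29. Also named were Col23a1 (3.65-fold higher), and Col24a1 and Col20a1 (1.91-fold to 3.14-fold lower), each on under 100 UMIs a library. The limit was missed under some alternative by Col20a1 (-0.50), Col23a1 (-0.40) and Col24a1 (1.91). In endothelial-like nuclei, of 33 chains measured, 14 were higher and 3 lower, where 15.1% and 3.14% of all genes measured were. Most of these chains lay near or below their lymphocyte level, as Col1a1 did at 16.7 and 41.2 CPM against a pooled 68.0 CPM. In lymphocytes Col1a1 was itself higher in smoke, at 34.1 CPM in room air and 79.8 CPM in smoke. The part of free RNA in its ratios here, in macrophage-like nuclei and in cluster 14 was not tested. Of the 12 chains above their lymphocyte level, 3 were higher (Col4a3, Col4a4 and Col9a1) and 0 lower, with a median of -0.12. Col9a1 rested on 18 UMIs in room air and 36 in smoke. Within cluster 17, which held 380 and 531 of these nuclei, Col4a3 and Col4a4 were each less than 1.5-fold apart, with levels given below. The part of this make-up in the class values was not tested. The named chains were Col1a1, Col27a1, Col4a3, Col6a2, Col1a2, Col12a1, Col6a3 and Col4a6 (1.53-fold to 2.68-fold higher), and Col24a1 and Col6a6 (2.37-fold to 2.47-fold lower). Under some alternatives the limit was not kept by Col12a1 (0.53), Col1a2 (0.31), Col24a1 (-0.12), Col27a1 (0.36), Col4a6 (0.017), Col6a3 (0.24) and Col6a6 (-0.18), while Col1a1 (0.71) and Col6a2 (2.62) moved by over 1.5-fold but stayed past it.

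Macrophage-like nuclei had few chains above the lymphocyte level, and of these Col24a1 was the one with the most UMIs. There, of 33 chains measured, 4 were higher and 6 lower, where 10.9% and 4.87% of all genes measured were. Col24a1 was at 18.9 and 6.02 CPM, 3.13-fold lower (2.74 to 3.59). Of its 624 UMIs in room air and 338 in smoke, 43 came from 1 nucleus in each library. In cluster 2, led by Adgre4, 38 of 719 nuclei held 236 UMIs in room air and 12 of 1167 nuclei held 32 in smoke. The others named were Col1a1, Col4a4 and Col6a1 (1.54-fold to 1.67-fold higher), and Col6a6, Col25a1 and Col11a2 (1.54-fold to 2.76-fold lower). Some alternatives took Col11a2 (-0.52), Col1a1 (0.42), Col25a1 (-0.32), Col4a4 (0.55) and Col6a1 (0.50) under the limit.

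In cluster 14, of 18 chains measured, 6 were higher and 5 lower, where 19.9% and 11.1% of all genes measured were. Of the 9 above the lymphocyte level, 1 was higher and 5 lower, with a median log2 ratio of -0.59. Col4a5, Col1a1, Col1a2 and Col4a6, named below as higher, were not above that level. Col4a1 was at 824 CPM (743 to 911) and 277 CPM (252 to 305), 2.97-fold lower (2.58 to 3.42), and Col4a2 at 649.7 and 287 CPM, 2.27-fold lower (1.95 to 2.63). The part of the make-up of cluster 14 in these values was not tested. The others named there were Col23a1, Col4a5, Col1a1, Col1a2 and Col4a6 (2.03-fold to 5.56-fold higher), and Col28a1, Col18a1 and Col15a1 (1.51-fold to 22.1-fold lower). Alternatives brought Col15a1 (-0.37), Col18a1 (0.26), Col1a2 (-0.22) and Col4a6 (0.53) under the limit, while Col1a1 (1.33), Col23a1 (1.53), Col28a1 (-2.31) and Col4a5 (0.85) moved by over 1.5-fold but stayed past it. Of the 203 Col23a1 UMIs in smoke, 63 came from 1 nucleus, as did 17 of the 20 Col28a1 UMIs in room air.

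**Figure D4:**
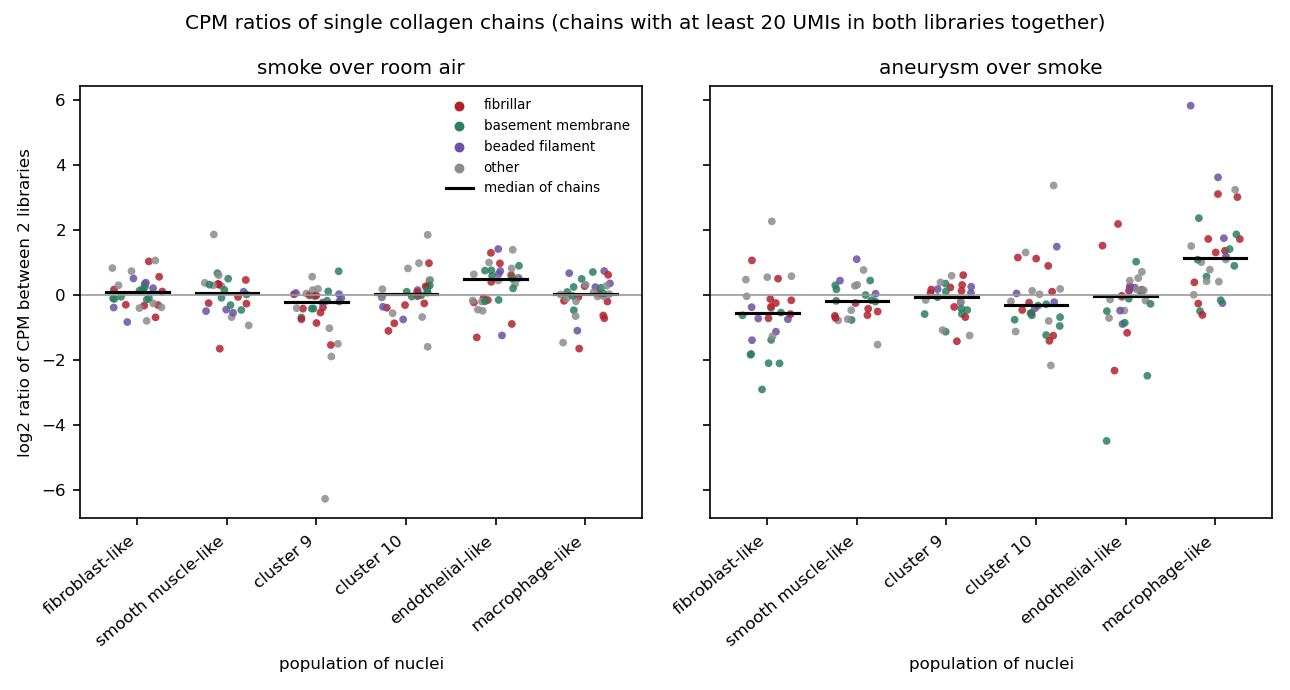
Log2 ratio of CPM (y axis) of each chain that had 20 UMIs or more over both libraries, by population (x axis), for smoke over room air and for aneurysm over smoke. Points are chains coloured by family group and black lines are medians. In fibroblast-like nuclei the basement membrane chains are low in the second comparison, and macrophage-like chains are mostly high there.

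The second comparison, aneurysm against smoke, asks what differs between smoke-exposed aortae with and without an aneurysm. The chains that stood out were type IV chains in fibroblast-like nuclei. Col4a3 was at 96.7 CPM (83.3 to 112), 90.3 CPM (81.1 to 100.2) and 12.0 CPM (7.02 to 19.3). Col4a4 was at 139.9, 129 and 36.1 CPM, Col4a5 at 361, 329 and 93.5 CPM and Col4a6 at 309.9, 368 and 85.7 CPM. For these 4 chains room air and smoke were within 1.5-fold and the aneurysm library lay below both. Against smoke, Col4a3 was 7.50-fold lower (4.62 to 13.0), Col4a6 4.29-fold lower (3.56 to 5.21), Col4a4 3.57-fold lower (2.67 to 4.86) and Col4a5 3.51-fold lower (2.94 to 4.24). Col15a1 was at 132, 145 and 34.0 CPM, 4.28-fold lower (3.18 to 5.87). Col4a1, at 193, 182 and 118 CPM, was 1.54-fold lower (1.30 to 1.83), and Col4a2, at 154, 149 and 103 CPM, stayed within 1.5-fold. The median log2 ratio was -1.82 over 8 basement membrane chains and -0.20 over 8 fibrillar chains. In all, of 28 chains measured, 2 were higher and 14 lower, where 14.6% and 20.3% of all genes measured were, and the median was -0.56 beside 0.0062 over all genes.

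Most beaded filament chains were lower in the same nuclei. Col6a1 was at 38.0, 48.2 and 18.4 CPM, 2.62-fold lower (1.73 to 4.11) than in smoke, Col6a2 at 42.6, 55.7 and 25.5 CPM and Col6a3 at 172, 199 and 119 CPM. Col6a6 was at 224, 126 and 76.5 CPM, lower at each step of that order. Col6a5, at 87.4, 125 and 96.3 CPM, and Col14a1, at 1586, 1222 and 1702 CPM, stayed within 1.5-fold. Also named as lower were Col23a1 and Col18a1 (2.41-fold to 2.60-fold lower). The higher chains named were Col12a1 and Col24a1 (2.10-fold to 4.83-fold higher), on 35 and 19 UMIs in the aneurysm library, and both were under the mark of 2 times the lymphocyte level. Under at least 1 alternative the limit was missed by Col23a1 (-0.50) and Col24a1 (0.47), while Col12a1 (1.21), Col15a1 (-1.23), Col18a1 (-2.26), Col4a4 (-1.12), Col4a6 (-1.30) and Col6a1 (-0.79) moved by over 1.5-fold but stayed past it.

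The make-up of the fibroblast-like nuclei moved with this. A finer clustering held a subcluster led by Cd55 and Sema3c with 3.39, 4.01 and 24.6% of the class. In its 178 nuclei of the aneurysm library, Col4a5 was at 33.0 CPM and Col15a1 at 1.74 CPM. In the remaining nuclei Col4a5 was at 367, 333 and 135 CPM, Col4a6 at 318, 376 and 135 CPM and Col15a1 at 134, 149 and 56.3 CPM, again lowest in the aneurysm library. Without the subcluster, an alternative added after the values were seen, the median over chains was -0.19. The log2 ratios were then -2.46 for Col4a3, -1.47 for Col4a6, -1.40 for Col15a1, -1.30 for Col4a5 and -1.12 for Col4a4, all still past 1.5-fold. Macrophage markers in fibroblast-like nuclei summed to 640.1, 1233 and 352 CPM, and their part in these values was not tested.

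**Figure D5:**
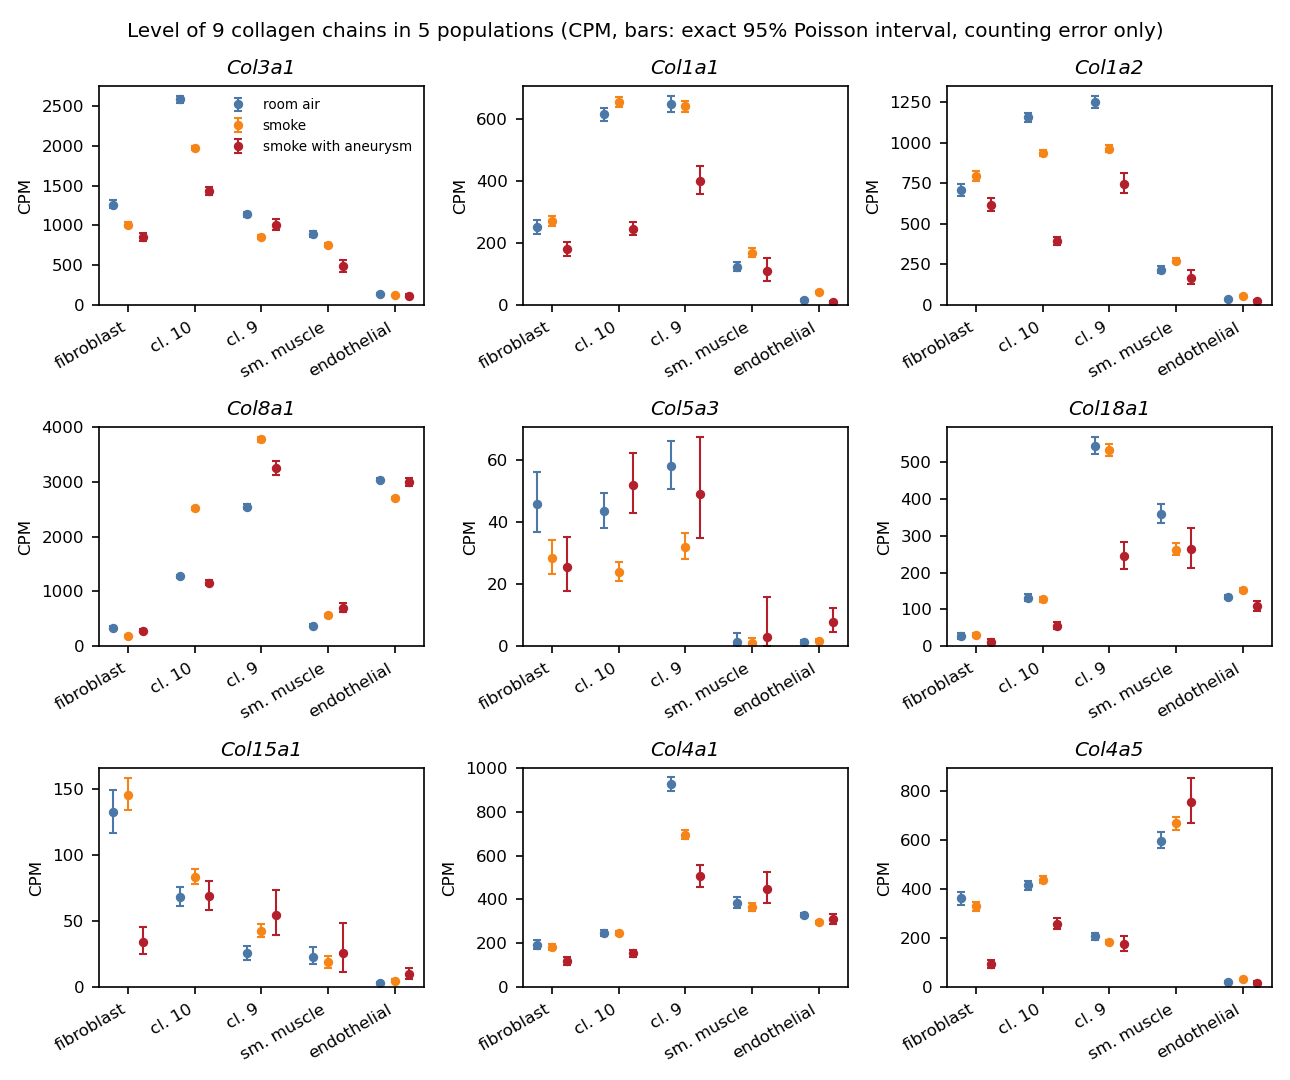
CPM of selected collagen chains (panels, y axis from 0) in fibroblast-like nuclei, clusters 10 and 9, smooth muscle-like and endothelial-like nuclei (x axis), coloured by library, with exact 95% Poisson intervals. Col4a5 is low in fibroblast-like nuclei of the aneurysm library and Col8a1 is high in cluster 10 of the smoke library.

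Smooth muscle-like nuclei gave other values for the same chains, with Col4a5 at 667 and 755 CPM and Col4a6 at 716 and 642 CPM in smoke and aneurysm. Whether the fibroblast-like and smooth muscle-like ratios differ was not tested. In this class, of 24 chains measured, 2 were higher and 7 lower, where 14.9% and 25.1% of all genes measured were. Col3a1 was at 893 CPM (853 to 934), 753 CPM (726 to 781) and 484 CPM (414 to 562), 1.56-fold lower (1.33 to 1.83) than in smoke. Col12a1 was at 89.9, 111 and 189 CPM, 1.71-fold higher (1.30 to 2.22). Thinned to 1000 UMIs, the log2 ratio of Col3a1 was -0.47, and with no mitochondrial limit that of Col12a1 was 0.41, both under the limit. Also named were Col6a2 (2.15-fold higher), and Col1a2, Col4a3 and Col1a1 (1.53-fold to 1.70-fold lower). At least 1 alternative left Col1a1 (-0.33), Col4a3 (-0.23) and Col6a2 (-0.61) under the limit. Only 142 nuclei stand behind the aneurysm values, and the smooth muscle marker sum was highest there as well.

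In cluster 10 type I collagen was low in the aneurysm library. Col1a1 was at 614 CPM (594 to 636), 653 CPM (637 to 669.7) and 246 CPM (226 to 268), 2.65-fold lower (2.43 to 2.90) than in smoke. Col1a2 was at 1155, 934 and 394 CPM, 2.37-fold lower (2.21 to 2.55). Room air and smoke were within 1.5-fold for Col1a1, and the aneurysm library lay below both. Col18a1, whose end fragment is endostatin, was at 131, 127 and 54.2 CPM, 2.35-fold lower (1.95 to 2.86). Col6a3, at 728, 699 and 724 CPM, and Col5a2, at 1777, 1742 and 1485 CPM, stayed within 1.5-fold. In cluster 10, of 30 chains measured, 6 were higher and 10 lower, where 12.5% and 16.5% of all genes measured were. The others named as lower were Col8a1, Col4a2, Col4a5, Col12a1 and Col19a1 (1.69-fold to 4.49-fold lower), and those named as higher were Col25a1, Col24a1, Col5a3, Col6a6, Col23a1 and Col11a1 (1.87-fold to 10.4-fold higher). The limit was missed under some alternative by Col11a1 (-0.21), Col19a1 (-0.14), Col23a1 (0.56), Col25a1 (0.094) and Col4a5 (-0.31), while Col18a1 (-2.32), Col24a1 (1.88), Col4a2 (-1.85), Col5a3 (1.78) and Col6a6 (2.09) moved by over 1.5-fold but stayed past it.

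For 4 chains of cluster 10 the smoke library stood apart from both others. Col8a1 was at 1271, 2517 and 1157 CPM and Col12a1 at 127, 225 and 129.7 CPM. Col24a1 was at 178, 83.1 and 185 CPM and Col5a3 at 43.5, 23.8 and 52.0 CPM. Room air and aneurysm were within 1.5-fold for each. In aneurysm over smoke the log2 ratio was -0.44 for Col8a1 with no mitochondrial limit and -0.23 for Col12a1 at resolution 0.5, both under the limit. As both comparisons use the smoke library, their ratios are not independent of each other. No share of all genes with smoke apart is given, so the pattern cannot be read as particular to collagen. For Col25a1, 12 of the 19 UMIs of the aneurysm library lay in 1 nucleus.

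In cluster 9, Col18a1 was at 544 CPM (521 to 568), 534 CPM (517 to 551) and 244 CPM (211 to 282), 2.18-fold lower (1.89 to 2.54) in the aneurysm library than in smoke. Col1a1 was at 647, 641 and 401 CPM, 1.60-fold lower (1.42 to 1.80), with a log2 ratio of -0.56 and under the limit when no mitochondrial limit was set. Room air and smoke were within 1.5-fold for both. In this cluster, of 27 chains measured, 2 were higher and 5 lower, where 13.8% and 19.2% of all genes measured were. Also named was Col5a3 (1.53-fold higher). Under some alternatives the limit was not kept by Col5a3 (0.52).

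In endothelial-like nuclei the chains with the highest levels stayed within 1.5-fold, with Col8a1 at 2705 and 2997 CPM, Col5a2 at 1821 and 2195 CPM and Col4a1 at 295 and 309 CPM in smoke and aneurysm. There, of 30 chains measured, 4 were higher and 7 lower, where 10.5% and 22.9% of all genes measured were. Of the 12 above the lymphocyte level, 1 was higher and 2 lower, with a median log2 ratio of 0.11. Col4a4 was at 12.9, 19.5 and 0.865 CPM, 22.5-fold lower (6.18 to 186) on 2 UMIs in the aneurysm library. In cluster 17 it was at 111 and 102 CPM in the room air and smoke libraries, against 1.78, 2.50 and 0.451 CPM in cluster 6. Col4a3 was at 77.7 and 88.6 CPM in cluster 17 in those libraries and at 1.38, 2.27 and 2.71 CPM in cluster 6. Cluster 17 held 380, 531 and 15 nuclei and cluster 6 held 1233, 1209 and 566, and the part of this make-up in the class values was not tested. The others named were Col5a3, Col15a1 and Col24a1 (2.04-fold to 4.57-fold higher), and Col1a1, Col4a3, Col1a2 and Col4a5 (1.80-fold to 5.60-fold lower). Some alternatives took Col15a1 (-0.092), Col1a2 (-0.44) and Col24a1 (0.17) under the limit, while Col1a1 (-1.51), Col4a3 (-3.88), Col4a4 (-6.03) and Col5a3 (1.49) moved by over 1.5-fold but stayed past it.

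In cluster 14, of 20 chains measured, 6 were higher and 5 lower, where 12.8% and 18.3% of all genes measured were. Of the 10 above the lymphocyte level, 3 were higher and 1 lower, with a median log2 ratio of 0.42. Col14a1, Col1a2, Col1a1 and Col4a5, named next, were not above that level. Named were Col28a1, Col4a1, Col5a3 and Col14a1 (1.65-fold to 11.5-fold higher), and Col23a1, Col1a2, Col1a1 and Col4a5 (2.02-fold to 3.65-fold lower). Alternatives brought Col1a1 (-0.19) and Col4a5 (0.31) under the limit, while Col1a2 (-0.63) and Col23a1 (-2.52) moved by over 1.5-fold but stayed past it. In adipocyte-like nuclei, of 21 chains measured, 10 were higher and 2 lower, where 15.8% and 23.9% of all genes measured were. Of the 7 above the lymphocyte level, 3 were higher and 1 lower, with a median log2 ratio of 0.25. Col4a6, Col4a5, Col14a1, Col8a1, Col3a1 and Col1a1, named next, were not above that level. Chains named there were Col11a2, Col4a6, Col4a5, Col12a1, Col7a1, Col14a1, Col8a1 and Col3a1 (1.89-fold to 8.11-fold higher), and Col27a1 and Col1a1 (1.51-fold to 2.04-fold lower). Under at least 1 alternative the limit was missed by Col14a1 (0.54), Col27a1 (-0.064), Col3a1 (-0.40) and Col8a1 (-0.30), while Col11a2 (2.88), Col12a1 (0.59) and Col7a1 (0.68) moved by over 1.5-fold but stayed past it. Cluster 19 held 100 and 669 of these nuclei and cluster 21 held 97 and 554 in smoke and aneurysm. Within them Col27a1 was at 74.8 and 74.0 CPM and 658 and 550.0 CPM, less than 1.5-fold apart in each.

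In macrophage-like nuclei most chains were higher in the aneurysm library, at low levels. There, of 30 chains measured, 20 were higher and 1 lower, where 24.2% and 17.0% of all genes measured were. The class compares different mixes of clusters. Of its 4794, 5936 and 710 nuclei, cluster 18 held 105, 227 and 341, the most of any cluster in the aneurysm library, and cluster 3 held 1926, 1829 and 157, the most in the others. Within single clusters the median log2 ratio was 0.59 over 10 chains in cluster 18, 0.80 over 21 in cluster 3, 0.45 over 18 in cluster 4 and 1.47 over 19 in cluster 7. Over the class the median log2 ratio was 1.14, and 0.52 after each nucleus was thinned to 1000 UMIs. Col5a2, for example, was at 29.3, 25.9 and 66.7 CPM, below its 106 CPM in lymphocytes. Smooth muscle markers summed to 37.6, 44.5 and 108 CPM in these nuclei and fibroblast markers to 108, 117 and 159 CPM, and the part of free RNA was not tested. Besides Col6a5 and Col24a1, the chains named were Col6a6, Col19a1, Col5a3, Col6a3, Col5a1 and Col5a2 (2.58-fold to 12.4-fold higher), and Col1a1 (1.53-fold lower). At least 1 alternative left Col1a1 (-0.11) and Col5a2 (0.56) under the limit, while Col19a1 (4.22), Col5a3 (4.10), Col6a3 (2.45), Col6a5 (5.00) and Col6a6 (2.48) moved by over 1.5-fold but stayed past it.

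Col6a5 stood out among them. It was at 0.514, 0.659 and 37.7 CPM in macrophage-like nuclei, 57.1-fold higher (37.1 to 88.9) than in smoke. All 57 UMIs of the aneurysm library lay in cluster 18, led by F13a1, Cd163 and Ednrb, at 101 CPM (76.6 to 131). The same cluster had 0 UMIs in the 105 nuclei of room air and 2 in the 227 nuclei of smoke. In the aneurysm library 37 of 341 nuclei held a UMI, with at most 6 in 1 nucleus. Fibroblast-like nuclei of that library were at 96.3 CPM of Col6a5, a like level. The 14 fibroblast markers summed to 167 CPM in cluster 18 and 8329 CPM in fibroblast-like nuclei. The source of the Col6a5 UMIs in cluster 18 was not tested.

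Col24a1 was at 18.9, 6.02 and 48.9 CPM over all macrophage-like nuclei, 8.12-fold higher (6.22 to 10.5) than in smoke, or by a log2 ratio of 1.76 with libraries clustered one by one. In cluster 3, led by Epb41l3, it was at 5.59, 3.61 and 117 CPM, but 21 of the 43 UMIs behind the last value came from 1 nucleus. Col14a1 was at 115, 127 and 150.2 CPM in cluster 4, led by Zfp618 and Fgf13, and at 6.52, 6.69 and 33.2 CPM in cluster 7, which held Mmp12 among its leading genes.

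The third comparison, aneurysm against room air, shares a library with each of the others. In fibroblast-like nuclei, of 27 chains measured, 3 were higher and 12 lower, where 18.2% and 13.0% of all genes measured were, with a median of -0.53 beside 0.10 over all genes. Col4a3 was 8.03-fold lower (4.88 to 14.1) and Col6a6 2.93-fold lower (2.37 to 3.65), the latter with a log2 ratio of -0.90 without the Cd55 and Sema3c subcluster. The others named were Col12a1, Col24a1 and Col16a1 (2.67-fold to 4.31-fold higher), and Col4a5, Col4a6, Col4a4, Col15a1, Col4a1 and Col18a1 (1.64-fold to 3.88-fold lower). The limit was missed under some alternative by Col4a1 (-0.29), while Col12a1 (0.93), Col15a1 (-1.25), Col18a1 (-0.65), Col24a1 (0.93), Col4a3 (-3.66), Col4a4 (-1.26) and Col4a6 (-1.23) moved by over 1.5-fold but stayed past it.

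In cluster 9, of 29 chains measured, 1 was higher and 12 lower, where 14.6% and 15.6% of all genes measured were. Named there were Col15a1 (2.13-fold higher), and Col18a1, Col4a1, Col4a2, Col1a2, Col1a1, Col2a1, Col23a1 and Col25a1 (1.61-fold to 7.77-fold lower). Under some alternatives the limit was not kept by Col1a1 (-0.46), Col1a2 (-0.42) and Col4a2 (-0.55), while Col23a1 (-1.05), Col25a1 (-1.01) and Col2a1 (-4.54) moved by over 1.5-fold but stayed past it. In cluster 10, of 29 chains measured, 4 were higher and 9 lower, where 13.3% and 10.5% of all genes measured were. Named there were Col25a1, Col11a1 and Col23a1 (2.82-fold to 15.3-fold higher), and Col1a2, Col1a1, Col18a1, Col3a1, Col5a1, Col4a2, Col4a5 and Col4a1 (1.60-fold to 2.94-fold lower). Some alternatives took Col23a1 (0.26), Col25a1 (0.58), Col3a1 (-0.32), Col4a1 (-0.44) and Col4a5 (-0.18) under the limit, while Col11a1 (4.15), Col18a1 (-2.54) and Col4a2 (-1.94) moved by over 1.5-fold but stayed past it.

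In smooth muscle-like nuclei, of 23 chains measured, 4 were higher and 3 lower, where 16.0% and 20.6% of all genes measured were. Named were Col8a1 and Col12a1 (1.90-fold to 2.11-fold higher), and Col3a1 (1.85-fold lower). Alternatives brought Col3a1 (-0.27) under the limit. In endothelial-like nuclei, of 26 chains measured, 6 were higher and 4 lower, where 13.1% and 15.9% of all genes measured were. Of the 12 above the lymphocyte level, 1 was higher and 2 lower, with a median log2 ratio of -0.051. Named were Col5a3, Col15a1, Col27a1 and Col6a3 (1.85-fold to 6.06-fold higher), and Col4a4, Col4a3 and Col1a1 (2.03-fold to 14.9-fold lower). Under at least 1 alternative the limit was missed by Col1a1 (-0.31) and Col6a3 (-0.027), while Col15a1 (0.66), Col4a3 (-2.84) and Col4a4 (-5.63) moved by over 1.5-fold but stayed past it. In macrophage-like nuclei, of 29 chains measured, 21 were higher and 0 lower, where 21.9% and 14.7% of all genes measured were, with Col6a5, Col19a1, Col6a3, Col6a6, Col24a1, Col5a3, Col4a6 and Col5a1 (2.59-fold to 73.3-fold higher) named, again over different mixes of clusters. At least 1 alternative left Col24a1 (0.18) under the limit, while Col4a6 (1.17) and Col6a6 (1.57) moved by over 1.5-fold but stayed past it. In cluster 14, of 16 chains measured, 4 were higher and 4 lower, where 17.6% and 15.4% of all genes measured were, with Col4a1, Col4a2 and Col18a1 (1.55-fold to 1.82-fold lower) named. Of the 9 above the lymphocyte level, 2 were higher and 4 lower, with a median log2 ratio of -0.18. The limit was missed under some alternative by Col18a1 (-0.14), Col4a1 (-0.40) and Col4a2 (-0.38).

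Genes that fold, process and bind collagen were described from 5 lists of 61 genes, with the same limits. Their ratios were not recomputed under the alternatives. The part of the Cd55 and Sema3c subcluster in their fibroblast-like values was therefore not tested. The share of all genes measured that was lower and higher follows each count in parentheses. In the synthesis and folding list, aneurysm against smoke gave 8 lower and 0 higher of 18 (16.5% and 12.5%) in cluster 10 and 7 lower and 0 higher of 18 (19.2% and 13.8%) in cluster 9. The same list gave 7 lower and 1 higher of 18 (22.9% and 10.5%) in endothelial-like nuclei and 5 lower and 3 higher of 18 (20.3% and 14.6%) in fibroblast-like nuclei. Serpinh1, the chaperone of the collagen helix and also a heat shock gene, was at 46.5, 72.0 and 20.8 CPM in cluster 10, 0.289 times (0.209 to 0.389) the smoke level in the aneurysm library. It was at 44.2, 77.2 and 21.3 CPM in fibroblast-like nuclei and 35.4, 55.5 and 13.8 CPM in endothelial-like nuclei, with smoke highest and aneurysm lowest in each of these 3. P4ha3, a prolyl hydroxylase subunit, was at 25.4, 25.0 and 9.49 CPM in cluster 10 and 5.20, 3.33 and 21.3 CPM in fibroblast-like nuclei, lower in the aneurysm library in the first and higher in the second. Smoke against room air gave 0 lower and 1 higher of 18 (5.02% and 12.2%) in cluster 10, 2 lower and 3 higher of 18 (5.44% and 16.7%) in fibroblast-like and 0 lower and 6 higher of 18 (3.14% and 15.1%) in endothelial-like nuclei.

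Among the proteoglycans that coat fibrils, aneurysm against smoke gave 5 lower and 0 higher of 7 (16.5% and 12.5%) in cluster 10 and 5 lower and 1 higher of 7 (19.2% and 13.8%) in cluster 9, and smoke against room air gave 0 lower and 4 higher of 7 (5.02% and 12.2%) in cluster 10. Lum, lumican, which spaces fibrils, was at 214, 277 and 99.4 CPM in cluster 10, and Bgn, biglycan, at 169, 298 and 109 CPM. Both were highest in smoke and lowest in the aneurysm library. For Lum the smoke library was highest elsewhere too. It was at 49.4, 77.7 and 28.3 CPM in fibroblast-like nuclei. In cluster 18 of the macrophage-like nuclei it was at 5.91, 21.1 and 7.10 CPM, on 2, 24 and 4 UMIs. The part of free RNA in the values of cluster 10 was not tested. Of processing and crosslinking genes, aneurysm against smoke gave 1 lower and 5 higher of 13 (20.3% and 14.6%) in fibroblast-like nuclei and 3 lower and 2 higher of 11 (16.5% and 12.5%) in cluster 10. Bmp1, which cleaves procollagen, was at 103, 96.4 and 221 CPM in fibroblast-like nuclei and Loxl1, a lysyl oxidase that crosslinks matrix, at 89.4, 92.9 and 188 CPM. Collagen receptors gave 1 lower and 5 higher of 12 (20.3% and 14.6%) in fibroblast-like nuclei, where Ddr2, a receptor kinase for fibrillar collagen, was at 1041, 955 and 1757 CPM.

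For partners of type IV collagen in the basement membrane, aneurysm against smoke gave 0 lower and 4 higher of 9 (20.3% and 14.6%) in fibroblast-like nuclei. Lamb1, a laminin chain, was at 12.5, 25.4 and 98.5 CPM, 3.88 times (2.98 to 5.07) the smoke level. Nid1, nidogen, which links laminin to type IV collagen, was at 149, 172 and 340.0 CPM, 1.97 times (1.75 to 2.22). The aneurysm library was the highest of all libraries for both genes. Smooth muscle-like nuclei gave 0 lower and 5 higher of 8 (25.1% and 14.9%), with Lamc1 at 144, 156 and 271 CPM. Cluster 10 gave 0 lower and 1 higher of 9 (16.5% and 12.5%), with Lama4 at 82.3, 89.0 and 176 CPM. The list gave 0 lower and 8 higher of 9 (17.0% and 24.2%) in macrophage-like nuclei, over different mixes of clusters. It gave 0 lower and 5 higher of 9 (18.3% and 12.8%) in cluster 14. Endothelial-like nuclei gave 0 lower and 2 higher of 8 (22.9% and 10.5%) and cluster 9 gave 0 lower and 2 higher of 9 (19.2% and 13.8%). Adipocyte-like nuclei gave 1 lower and 2 higher of 8 (23.9% and 15.8%).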

How the data were processed

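Single-nucleus RNA of the abdominal aorta was measured in 3 libraries, 1 per group. The deposited files hold counts of UMIs for each gene and barcode, not normalized by the authors. The matrices were written by cellranger 8.0.1 per the file headers, but STAR, mm10 and version 2.2.0 of Cell Ranger stand in the submitters' processing notes, a disagreement that was not settled. No source used here says whether introns were counted or strand was used, and overlapping genes may share reads.

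Of 35396 barcodes, 30730 with at least 500 UMIs, 300 genes and at most 5% mitochondrial UMIs were kept. Library totals were 73891039, 117247048 and 15634797 UMIs. Libraries shared 46, 29 and 26 barcodes pairwise, at most 0.395% of the smaller library. Nuclei were clustered together in scanpy 1.11.5 (Python 3.11.15, numpy 2.4.6, scipy 1.17.1, pandas 2.3.3, scikit-learn 1.9.0) on 2000 variable genes without collagens, 30 components, 20 neighbours and Leiden resolution 1. Names came from 188 markers of 20 classes. The naming margin and the limit of 2 times the lymphocyte level were set after the data were seen. Scrublet marked 367, 404 and 1 nuclei, which shows that it did not work in the aneurysm library, so doublets were kept.

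UMIs were summed per population and library, divided by the population's total and compared as ratios. Chains named have at least 20 UMIs in both libraries together, a 1.5-fold difference and an interval that leaves out 1, up to 8 per direction, ranked by the interval bound nearest 1. Of the listed pathway genes, those past these limits could be named, up to 4 per list and comparison. Ratio and interval code was checked on simulated data. Alternatives were nucleus filters, resolution, joint or separate clustering, thinning, weighting, scaling, chain minimums and leaving out single nuclei. Members and gene lists were chosen with earlier results of these data known. Promoter sequences are from RefSeq (GRCm38.p6), whose promoter table held 35 of the 44 genes.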

Additional observations from a re-analysis of the deposited data

Results flagged for a closer look

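In single chains the direction of a difference was not the same in each population. Col8a1 had a log2 ratio of smoke over room air of 0.99 in cluster 10 and -0.79 in fibroblast-like nuclei, so the same contrast went in opposite directions. Col12a1 had a log2 ratio of aneurysm over smoke of 1.27 in adipocyte-like nuclei and -0.80 in cluster 10. The difference between the populations was not tested in either case, since each group is 1 library. Under at least 1 alternative the ratio went under 1.5-fold for Col8a1 in both populations and for Col12a1 in cluster 10.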

How the results depend on the processing

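A median of chain ratios was counted as moved outside the medians of the chains' lower and upper interval bounds, a wide limit, and a level or single ratio outside its own counting interval. Of the medians under alternatives, 277 stayed inside and 5 did not. The macrophage-like median of aneurysm over smoke stayed inside, yet ran from 0.52 to 1.44. Of the summed levels, 77 stayed inside and 83 did not, and in cluster 10 they ran from 7430.1 to 8581 CPM in the aneurysm library, 10104 to 11506 CPM in room air and 10627 to 11678 CPM in smoke. In cluster 9 those of smoke ran from 8123 to 12076 CPM and those of aneurysm from 9173 to 10797 CPM. For fibroblast-like nuclei, the median log2 ratio of aneurysm over smoke moved to -0.19 without the Cd55 and Sema3c subcluster and to -0.24 with no UMI minimum per chain, and that of aneurysm over room air to -0.24 without the subcluster. The subcluster alternative was chosen after seeing the data. Of the single-chain ratios, 1587 stayed inside their interval, which does not mean that the 1.5-fold limit was kept, 247 moved outside and 21 changed sign. Over all alternatives run, the log2 ratio of aneurysm over smoke in fibroblast-like nuclei ran from -3.43 to -2.46 for Col4a3, -1.92 to -1.30 for Col4a5 and -2.16 to -1.23 for Col15a1. In cluster 10 it ran from -1.71 to -1.07 for Col1a1, and in macrophage-like nuclei from 5.00 to 6.13 for Col6a5. The ratio of smoke over room air for Col8a1 in cluster 10 ran from 0.53 to 1.02.

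The log2 ratios that changed sign were the following. With a 1000 UMI minimum, smoke over room air was 1.91 for Col24a1 in smooth muscle-like nuclei, 0.094 for Col19a1 and 0.75 for Col24a1 in cluster 9, and -1.18 for Col19a1 in cluster 10. With no mitochondrial limit it was 1.82 for Col24a1 in smooth muscle-like nuclei and -0.80 for Col19a1 in cluster 10, and aneurysm over smoke was -0.21 for Col11a1 in cluster 10 and -0.088 for Col8a1 in adipocyte-like nuclei. Thinned to 1000 UMIs, smoke over room air was -0.40 for Col23a1 in smooth muscle-like nuclei, 0.72 for Col28a1 in cluster 9 and 0.26 for Col18a1 in cluster 14, and aneurysm over smoke was -0.61 for Col6a2 in smooth muscle-like nuclei, -0.40 for Col3a1 in adipocyte-like nuclei and 0.31 for Col4a5 in cluster 14. With collagen genes among the variable genes, Col15a1 was -0.092 in aneurysm over smoke and Col6a3 -0.027 in aneurysm over room air, both in endothelial-like nuclei. Col19a1 in cluster 10, smoke over room air, was -0.088 at resolution 0.5 and -0.12 with nuclei weighted equally. With libraries clustered one by one, Col8a1 in adipocyte-like nuclei was -0.30 in aneurysm over smoke and Col1a2 in cluster 14 -0.22 in smoke over room air, and Col1a2 was -0.016 there without the highest Scrublet scores. The cause was not tested for these.

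No paired analysis was possible because each group is 1 library. With 1 library a group, animal, library and group cannot be told apart, and leaving out a library leaves no comparison. Depth limits the aneurysm library most. A chain with under 20 UMIs in a pair of libraries was not compared there, which says nothing of its absence. Fewer values stand behind resolution 0.5 and behind clustering one by one, where some populations had no match.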
